A study of Mus musculus with 2 samples.

Results

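The Toll-like receptors TLR1 to TLR9 and their shared adaptor MyD88 were followed in mouse splenic antigen-presenting cells (APCs) that met CD4+ T cells with or without the T cells' antigen. The members were all probe sets of an Affymetrix whole-genome array whose only gene symbol is Tlr1, Tlr2, Tlr3, Tlr4, Tlr5, Tlr6, Tlr7, Tlr8, Tlr9 or Myd88. These 10 genes had 16 of the 45037 probe sets other than controls, and the array named 18193 genes in all. APCs came from the spleens of wild-type C57BL/6 female mice aged 10 weeks and were cultured overnight together with P25 TCR CD4+ T cells, which carry a T cell receptor specific for P25, a peptide of a mycobacterial secreted antigen. One culture received P25 and the other medium only, so T cells were present in both. The APCs were then enriched, RNA of 3 independent experiments was mixed, and each mixture was hybridised to 1 array. With 1 array per condition there is no spread between samples and no p-value, so every difference is a description of these 2 arrays. Signals are MAS5 values, the Affymetrix summary of a probe set on a linear scale, and a ratio is always the P25 signal over the medium signal.

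Toll-like receptors recognise microbial molecules. TLR1, TLR2, TLR4, TLR5 and TLR6 sit mainly at the cell surface and bind lipoproteins, lipopolysaccharide or flagellin, whereas TLR3, TLR7, TLR8 and TLR9 bind nucleic acids in endosomes. All of them except TLR3 signal through MyD88, which recruits IRAK kinases and TRAF6 and so activates NF-κB and interferon regulatory factors. In the spleen, B cells, macrophages and dendritic cells carry different sets of these receptors, and no TLR ligand is named as an agent of these cultures.

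Of the 10 genes, Tlr7 had a signal that was higher with P25 by more than 2-fold, Tlr9 had a dim signal that was lower by just over 2-fold, and 7 genes were within 2-fold. Tlr8 was not measured. A signal was taken as measured when at least 1 array exceeded a floor of 10.3, the 40th percentile of all signals, and signals below the floor were raised to it, so where that applied to either array the ratio is given as a bound ("at least"). By that rule 14 of the 16 probe sets and 9 of the 10 genes were measured, each gene being read from the probe set whose log2 signals had the highest mean. Among all 12897 measured genes, 9.43% passed 2-fold on the higher side with P25 and 7.22% on the lower side, so 1 member of 9 on each side (11.1%) is near the background. The median log2 ratio was 0.10 over the 9 measured members and 0.02 over all measured genes. Of the measured members, 6 lay above 0 and 3 below it on that scale. As a gauge of technical spread, the log2 ratios of the 2 brightest probe sets of a gene differed with an SD of 0.58 over 5293 genes. That SD was 0.68 for pairs whose dimmer probe set had a mean signal under 100 and 0.46 for the brighter pairs, and it covers neither the culture nor the cells.

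**Figure D1:**
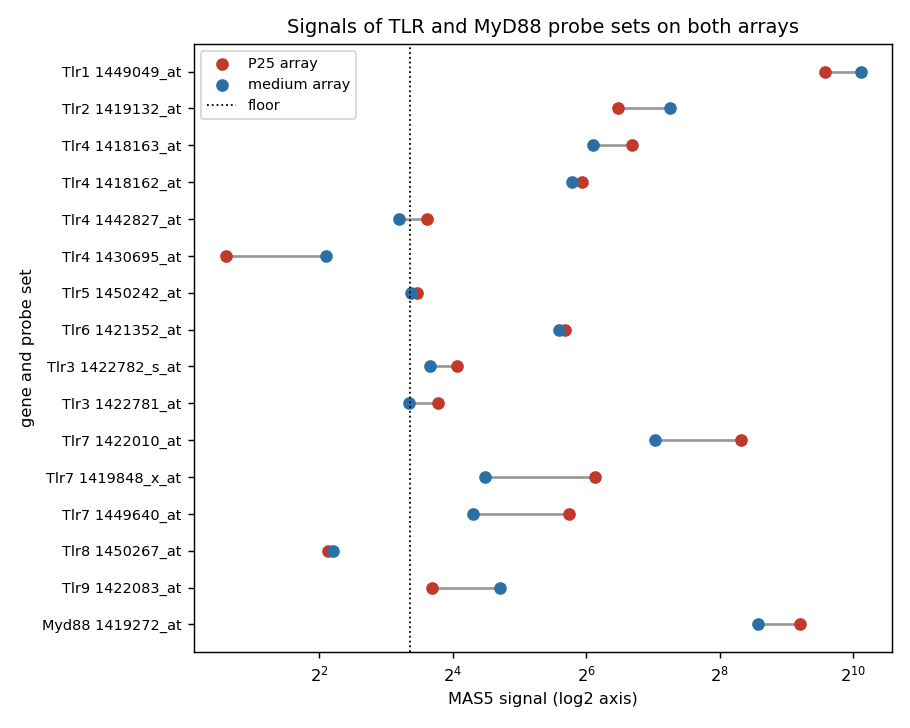
MAS5 signal (log2 axis) of each of the 16 probe sets on the P25 array and the medium array, with the floor of 10.3 as a dotted line; rows are ordered by surface receptors, endosomal receptors and adaptor. The 3 Tlr7 probe sets are higher on the P25 array, Tlr1 and Tlr2 are lower, and Tlr8 lies below the floor on both arrays.

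Among the endosomal receptors, Tlr7, which recognises single-stranded RNA, stood highest. Its brightest probe set, 1422010_at, had a signal of 319 with P25 and 131 with medium, a log2 ratio of 1.28 or 2.43-fold. The probe set 1419848_x_at read 69.9 against 22.3, and 1449640_at read 53.5 against 19.7. All 3 probe sets were above the floor on both arrays and higher with P25. The log2 ratios of the latter pair were 1.65 and 1.44, which lay 0.37 and 0.15 above that of the brightest, less than the SD between probe sets of a gene. The latter pair was designed on the same expressed sequence tag, so they are not independent of each other, and the suffix x_at marks probes that may also match other transcripts. Of all measured genes, 5.54% had a higher ratio than Tlr7. Tlr7 stayed at least 2-fold higher in all 11 alternative settings at 2-fold, with log2 ratios from 1.19 to 1.65. Both signals of its brightest probe set exceeded every floor used (at most 122), so the settings that changed only the floor could not move its ratio. Tlr8, which lies next to Tlr7 among protein-coding genes on the X chromosome and encodes another endosomal receptor, read 4.38 with P25 and 4.62 with medium. Both values were below the floor, so no ratio is given for it.

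Tlr9, the receptor of unmethylated CpG DNA, gave the lowest ratio of the 9 measured members. Its only probe set, 1422083_at, read 12.9 with P25 and 26.2 with medium, a log2 ratio of -1.02 or 2.03-fold lower. The P25 signal was just above the floor, and 8.09% of measured genes with a mean signal under 100 were at least 2-fold lower. Under median scaling the log2 ratio was -0.88, under spike-in scaling -0.87, and with log2(signal + 16) in place of the floor -0.55, so the 2-fold call was lost there. With the floor at the 60th percentile (38.6) Tlr9 was not measured on either array. Tlr3, which binds double-stranded RNA and signals through the adaptor TRIF, was dim as well. Its probe set 1422782_s_at read 16.7 against 12.7, and 1422781_at read 13.7 against 10.2, where the medium signal was below the floor. The log2 ratios were 0.39 and at least 0.42. Both are higher with P25, by less than the SD between probe sets of a gene.

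**Figure D2:**
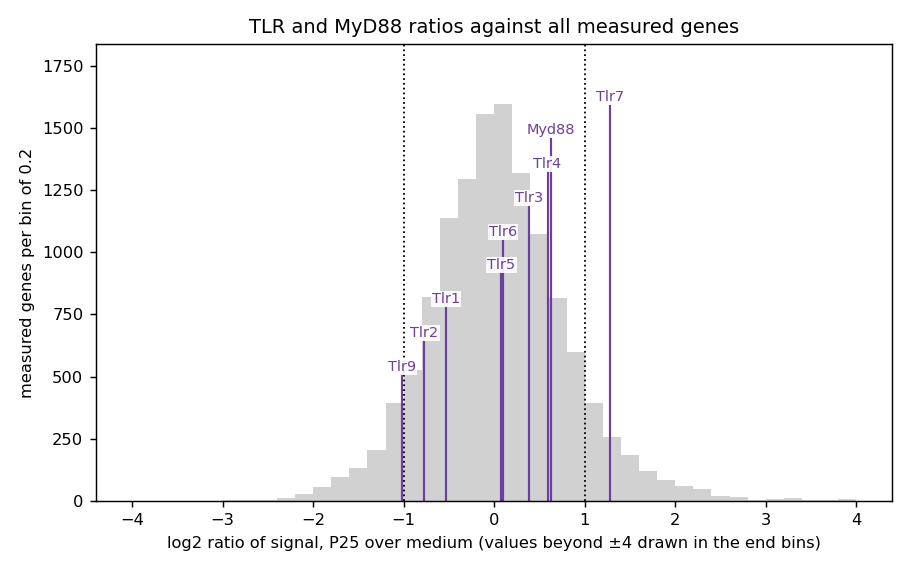
Log2 ratios of the 9 measured members (purple lines, P25 over medium) over the histogram of log2 ratios of all 12897 measured genes in bins of 0.2; line heights only separate the labels, and dotted lines mark 2-fold. Tlr7 at 1.28 lies beyond the upper line, Tlr9 at -1.02 just beyond the lower one, and the others between them.

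All 5 surface receptors were within 2-fold. Tlr2, which pairs with TLR1 or TLR6 to bind bacterial lipoproteins, read 89.3 with P25 and 152 with medium, a log2 ratio of -0.77 or 1.71-fold lower. Tlr1 read 768 against 1109.5, a log2 ratio of -0.53 or 1.45-fold lower. Tlr6, the other partner of TLR2, read 51.5 against 48.1, a log2 ratio of 0.10. The receptor and 1 of its partners were thus lower with P25, while the other partner differed by 1.07-fold. Tlr1 was lower by less than the SD between probe sets of a gene. Of all measured genes, 26.8% had a larger ratio in size than Tlr2 and 43.6% a larger one than Tlr1. Tlr1 and Tlr6 are neighbouring protein-coding genes. Tlr1, Tlr2 and Tlr6 each have 1 probe set, so the values have no second reading. The sign of each was kept in the alternatives: Tlr2 ranged from -0.77 to -0.61, with a bound of at most -0.32 where the floor (75th percentile) was above its P25 signal, Tlr1 from -0.72 to -0.38 and Tlr6 from 0.07 to 0.29.

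Tlr4, the lipopolysaccharide receptor, had 4 probe sets that differed in their readings. The brightest, 1418163_at, read 103 with P25 and 68.7 with medium, a log2 ratio of 0.59 or 1.5-fold higher. The next, 1418162_at, which was designed on the same sequence, read 61.2 against 55.4, a log2 ratio of 0.15. The dim 1442827_at read 12.3 against 9.12, a log2 ratio of at least 0.25, and 1430695_at was below the floor on both arrays at 1.52 and 4.30. The 3 measured probe sets were all higher with P25, from 0.15 to 0.59, a range smaller than the SD between probe sets of a gene. Tlr5, the flagellin receptor, read 11.0 against 10.4. Both values were barely above the floor, and the log2 ratio of 0.08 is not interpretable as a level.

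Myd88 was 1.55-fold higher with P25. Its probe set, 1419272_at, read 592 with P25 and 383 with medium, a log2 ratio of 0.63, and 19.2% of measured genes had a higher ratio. The ratio was under 2-fold in the deposited values and in each of 11 alternatives, where it ranged from 0.52 to 0.78. With 1 probe set and signals above every floor, it could move only with the pseudocount and the scalings. At a threshold of 1.5-fold, Myd88, Tlr7 and Tlr4 were higher and Tlr2 and Tlr9 lower, against 20.9% of measured genes higher and 18.3% lower at that threshold.

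Promoter sequences were read from RefSeq windows (GRCm38.p6) for 8 of the 10 genes, all but Tlr4 and Tlr7. In the 250 bases before each annotated start, 5 short motifs were searched on both strands. They were GAAANNGAA (like the interferon-stimulated response element, ISRE), TTCNNNGAA (like the gamma-activated site, GAS), GGGNNTTCC (like an NF-κB site), TGANTCA (like an AP-1 site) and GAGGAAGT (a PU.1 core). Shown here are Myd88, the adaptor that was higher with P25, Tlr6, which also has matches to the ISRE-like pattern and a ratio near 1, and the lower receptors Tlr2 and Tlr9. Capitals mark the matched bases, and each sequence runs 5′ to 3′ on the strand of its gene.
Myd88, chr9:119340019-119340268, minus strand: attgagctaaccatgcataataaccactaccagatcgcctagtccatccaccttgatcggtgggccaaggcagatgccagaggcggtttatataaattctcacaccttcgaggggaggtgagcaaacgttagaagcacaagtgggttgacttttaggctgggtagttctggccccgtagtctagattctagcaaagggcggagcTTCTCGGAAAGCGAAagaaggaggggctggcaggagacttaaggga
Tlr6, chr5:64959167-64959416, minus strand: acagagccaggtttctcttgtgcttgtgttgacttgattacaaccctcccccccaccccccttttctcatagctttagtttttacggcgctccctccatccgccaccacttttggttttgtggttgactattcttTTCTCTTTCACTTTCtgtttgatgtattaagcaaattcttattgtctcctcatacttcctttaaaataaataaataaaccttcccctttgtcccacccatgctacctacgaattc
Tlr2, chr3:83841609-83841858, minus strand: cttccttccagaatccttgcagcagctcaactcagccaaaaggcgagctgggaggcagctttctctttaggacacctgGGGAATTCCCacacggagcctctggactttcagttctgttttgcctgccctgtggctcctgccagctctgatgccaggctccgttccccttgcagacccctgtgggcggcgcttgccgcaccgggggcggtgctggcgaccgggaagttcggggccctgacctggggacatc
Tlr9, chr9:106222348-106222597, plus strand: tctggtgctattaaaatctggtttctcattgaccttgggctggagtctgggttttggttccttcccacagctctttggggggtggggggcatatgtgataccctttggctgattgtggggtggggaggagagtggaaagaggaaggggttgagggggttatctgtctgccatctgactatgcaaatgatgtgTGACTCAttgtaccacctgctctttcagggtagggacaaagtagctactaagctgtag

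In Myd88 a GAS-like match at bases -46 to -38 before the start overlaps an ISRE-like match, GAAAGCGAA, at -40 to -32. Of 32851 RefSeq windows of this length, 7.13% held an ISRE-like match and 7.02% a GAS-like match. Tlr6 has a pair of ISRE-like matches on the other strand, GAAAGAGAA at -115 to -107 and GAAAGTGAA at -109 to -101, which share bases, while its signal differed by 1.07-fold. Its second annotated window holds none of the 5 motifs. Tlr2 has overlapping NF-κB-like matches, GGGAATTCC on either strand from -172 to -163, a motif that 4.98% of all windows hold. Tlr9 has an AP-1-like match at -58 to -52, which 6.75% of windows hold. The search also found an ISRE-like and a GAS-like match in Tlr8, a PU.1 core in the first window of Tlr1, which 2.44% of windows hold, and a GAS-like match in its second window. None of the 5 motifs was found in the windows of Tlr3 and Tlr5. A match describes letters only, and the array does not measure binding at these windows.

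Markers of cell types that carry these receptors also differed between the arrays. Over all measured genes, 9.43% passed 2-fold on the higher side and 7.22% on the lower. Markers of B cells, which express several endosomal receptors, had a summed signal of 24254 with P25 and 35344 with medium. Of 11 measured B cell markers, 10 had signals lower with P25, 3 of them past 2-fold, and Cd79a read 3655 against 6119. Of 10 measured markers of macrophages and monocytes, 8 passed 2-fold on the lower side and none on the higher side, with summed signals of 1384 and 3307. Lyz2 made up 871 and 1996.5 of these sums. With the second brightest probe set of each gene, 6 passed 2-fold on the lower side. C1qa, C1qc and Cd163 were below the floor on both arrays. Other macrophage genes were detected with medium, among them C1qb (7.92 with P25 against 38.9) and Adgre1 (153 against 329). Of 8 markers of neutrophils, 7 passed 2-fold on the lower side, with sums of 6911 and 12797, and Cxcr2 was below the floor. S100a8 (3510 against 5331) and S100a9 (2001 against 4043) made up most of these sums. With median or spike-in scaling, 4 neutrophil markers and 7 markers of macrophages and monocytes were past 2-fold on the lower side. Macrophages and neutrophils are known carriers of TLR2 and TLR4, of which Tlr2 was lower and Tlr4 higher here. Plasmacytoid dendritic cells are known for high TLR7 and TLR9. Of 8 measured markers of these cells, 2 passed 2-fold in each direction, with a median log2 ratio of -0.08 and sums of 6036 and 5913. Ly6d made up 4109 and 4143 of these sums and Tcf4 1134 and 1265, so the sums mostly reflect these genes. Siglech (24.1 against 50.8) and Ccr9 (48.1 against 116, with other probe sets up to a log2 ratio of -0.02) were the lower ones, and Bst2 (480.1 against 113) and Klk1 (128 against 52.5, with other probe sets down to -0.61) the higher ones. Among 10 measured markers of conventional dendritic cells, 2 passed 2-fold in each direction, and the median log2 ratio was -0.45. With the median over the probe sets of each gene, 2 of these markers passed on the higher side and 0 on the lower. The sums of this list were 4778 and 3390, of which Irf8 made up 4275 and 2939, and Xcr1 was below the floor. Of the T cell markers, Cd3e, Cd3d, Cd4 and Cd247 were below the floor on both arrays by their brightest probe sets, 5 others were measured, and the list summed to 121 and 178. The highest log2 ratios of these lists, among B cell, macrophage, neutrophil, plasmacytoid, conventional dendritic and T cell markers in that order, were those of Ms4a1 (0.23), Fcgr1 (0.49), S100a8 (-0.60), Bst2 (2.09), Zbtb46 (2.52) and Cd3g (0.96). The lowest, in the same order, were those of Vpreb3 (-1.74), Ccr2 (-2.03 at most), Mpo (-1.98), Ccr9 (-1.26), Cadm1 (-1.46 at most) and Il7r (-1.46). Other probe sets gave values up to -0.13 for Ccr2 and -0.25 for Cadm1. The part of these cell types in the ratios of the receptors was not tested, and in bulk RNA fewer cells of a type and less RNA per cell cannot be told apart.

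The 2 other measured receptors of the TLR family were lower with P25, and the proteins that help the receptors were mostly within 2-fold. Tlr13, an endosomal receptor of bacterial ribosomal RNA, read 19.2 with P25 and 44.9 with medium, 2.34-fold lower, and with the floor at the 60th percentile, which its P25 signal does not reach, only a bound of at most -0.22 in log2 ratio is left. Tlr12, a partner in the recognition of profilin, read 2.98 against 15.3, at least 1.48-fold lower, since the P25 signal was below the floor. With no floor or a floor at the 20th percentile, Tlr12 and Tlr13 were both past 2-fold on the lower side, and with the pseudocount neither was. Of 14 measured co-receptors, chaperones and receptor-processing enzymes, none passed 2-fold on the higher side, against 9.43% of all measured genes. On the lower side 1 (7.14%) did, against 7.22%. That gene was Ctsl, a lysosomal protease that can cleave endosomal receptors, at 110 against 243 or 2.21-fold lower, and under 2-fold with median scaling. Unc93b1, which carries the nucleic acid receptors to endosomes, read 1079 against 1113, within 1.03-fold. Hsp90b1, the chaperone gp96 that folds most Toll-like receptors, was the highest of the list at 3886 against 2233, 1.74-fold. These readings are of the brightest probe sets. Other probe sets passed 2-fold for Cd36, up to a log2 ratio of 1.03, and for Ctsb, down to -1.38. The lipopolysaccharide co-receptors Cd14 (34.6 against 38.5) and Ly96 (81.8 against 106) had log2 ratios of -0.16 and -0.38. Cd180, a B cell relative of TLR4, and its partner Ly86 had log2 ratios of -0.15 and -0.06. The median log2 ratio of the list was -0.17, which was -0.07 under median scaling. Dcstamp, which has no established role in this group, was also listed and was below the floor.

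Of the adaptors and receptors that share the TIR domain or MyD88 with the family, those above the floor on both arrays were within 2-fold. Among 4 measured adaptors other than MyD88, the highest log2 ratio was 0.29 (Pik3ap1), and Sarm1 (4.45 against 11.7) had one of at most -0.19, since its P25 signal was below the floor. Tirap, the bridge of MyD88 to TLR2 and TLR4, read 151 against 160, and Ticam1, which encodes TRIF, 106 against 93.4. Of 5 measured IL-1 family receptors, 4 were above the floor on both arrays and had log2 ratios from -0.53 (Sigirr, 148 against 215) to 0.28 (Il1r2). Il1rl2 (12.4 against 4.31) had a log2 ratio of at least 0.27, and Il1r1 and Il18r1 were below the floor on both arrays. With no floor or a floor at the 20th percentile, 1 adaptor passed 2-fold on the lower side and 1 of these receptors on the higher side.

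Downstream of MyD88, 2 of 17 measured relay genes (11.8%) passed 2-fold on the higher side and 1 (5.88%) on the lower. These shares are near those of all measured genes, 9.43% higher and 7.22% lower. The higher ones were Irf7, the interferon regulatory factor that TLR7 and TLR9 activate through MyD88, at 431 against 91.8 or 4.69-fold, and the kinase gene Ikbke at 145 against 55.5 or 2.61-fold. The lower one was Irak2, a kinase of the MyD88 complex, at 193 against 420 or 2.18-fold, which was under 2-fold with median scaling. Irak1 and Traf6, which also act next to MyD88, had log2 ratios of -0.48 and -0.53, though their other probe sets reached 1.47 and 0.58. Genes of the list within 2-fold ran from -0.80 (Ikbkb) to 0.75 (Ube2n) by their brightest probe sets. Other probe sets ran from -1.01 to 0.7 for Ikbkb and from -1.52 to 0.03 for Irf3. The median log2 ratio of the list was -0.18, and -0.03 with median or spike-in scaling.

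**Figure D3:**
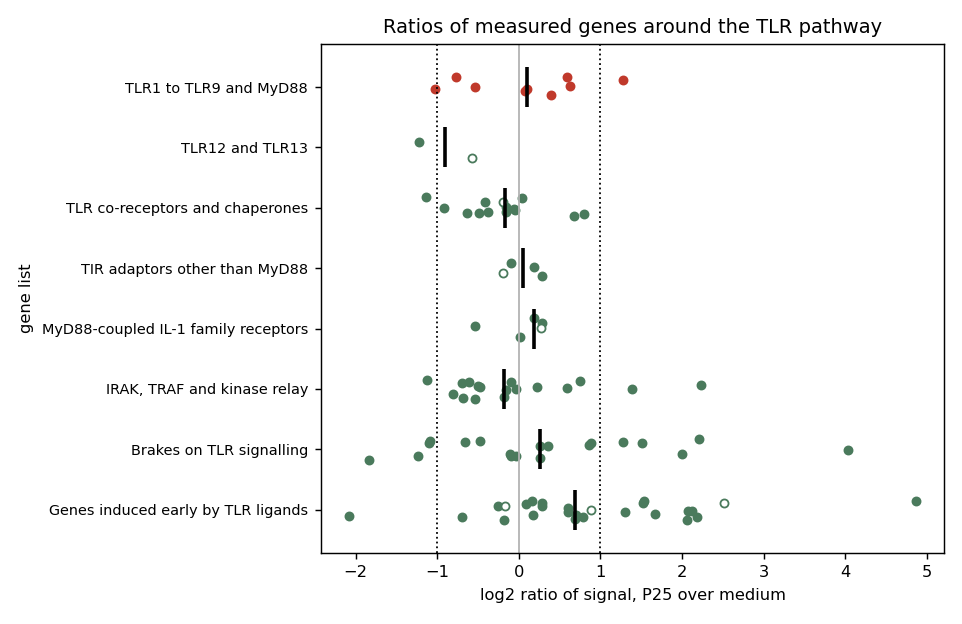
Log2 ratios (P25 over medium) of the measured genes of each list, a point per gene; open points are bounds with 1 array at the floor, black bars are medians and dotted lines mark 2-fold. The receptors with MyD88 (red) lie from -1.02 to 1.28, while the brakes and the early induced genes reach 4.04 and 4.87.

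Inhibitors of TLR signalling differed in both directions. Of 19 measured, 5 (26.3%) passed 2-fold on the higher side with P25 and 4 (21.1%) on the lower, and the median log2 ratio was 0.26. Over all measured genes the shares were 9.43% and 7.22%. The higher ones were Socs1 (295 against 17.9, 16.4-fold), Usp18 (233 against 50.2, 4.63-fold), Socs3 (4.01-fold), Tnfaip3 (2.84-fold) and Nfkbie (2.43-fold). Socs1 and Socs3 restrain cytokine receptors, Usp18 restrains interferon signalling, and Tnfaip3 and Nfkbie restrain NF-κB. The lower ones were Dusp1 (136 against 489, 3.59-fold), Inpp5d (2.35-fold), Irak3 (123 against 265, 2.15-fold) and Zfp36 (2.13-fold). Irak3 encodes IRAK-M, which blocks the MyD88 complex in macrophages, and its other probe set had a log2 ratio of -0.56. With median scaling the counts were 7 higher and 2 lower.

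Genes that TLR ligands induce early were more often higher than lower. Of 26 measured, 10 (38.5%) passed 2-fold on the higher side and 1 (3.85%) on the lower, and the median log2 ratio was 0.69. Over all measured genes the shares were 9.43% and 7.22%. The highest was Cxcl10, a chemokine that interferons also induce, at 29.2-fold, and the lowest Ccl5, a chemokine, at 79.5 against 337 or 4.24-fold lower. The others past 2-fold were Ptgs2 (at least 5.69-fold, but -0.04 on its other probe set), Tnf, Il6, Tnfsf9, Clec4e (419 against 100.1, 4.18-fold), Cd40, Il1b (96.1 against 33.2, 2.89-fold), Cxcl2 and Saa3 (49.5 against 20.1, 2.46-fold). Nos2, Il23a, Marco and Ifnb1 were below the floor on both arrays. Several of the higher genes were dim with medium: Tnf read 85.1 against 18.6, Il6 69.9 against 16.1, Cxcl2 54.1 against 18.9 and Tnfsf9 102 against 24.0. With the floor at the 60th percentile the counts were 6 higher and 1 lower of 21 measured. With the floor at the 75th percentile they were 3 higher and 1 lower of 10 measured. The genes of this list answer other stimuli as well, and the lists were drawn up with earlier results of these data known, so the counts are descriptions.

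**Figure D4:**
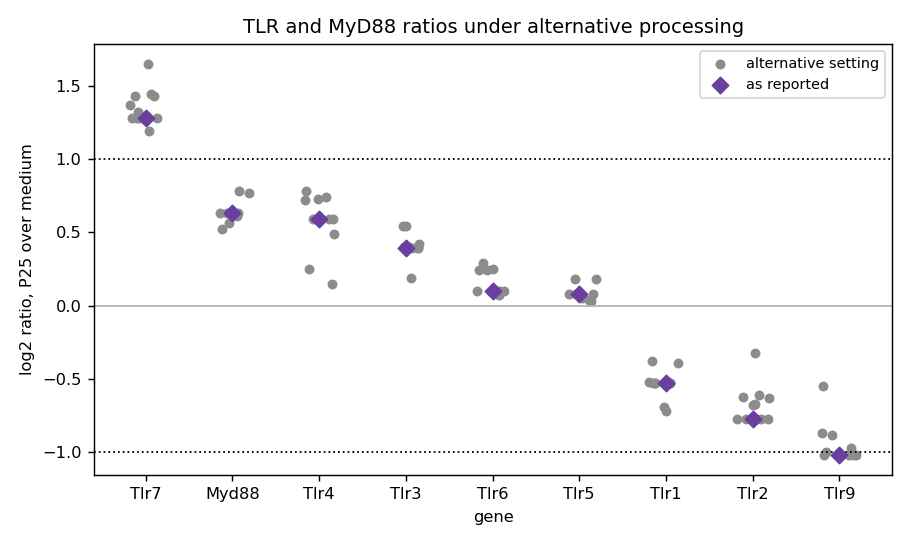
Log2 ratio (P25 over medium) of each measured member as reported (diamonds) and under each alternative setting that gives a value (grey points); dotted lines mark 2-fold. Tlr7 stays above the upper line in each setting, Tlr9 runs from -1.02 to -0.55, and none of the 9 changes sign.

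The scaling of the arrays bears on these values. Bringing the measured probe sets of both arrays to the same median moved the median log2 ratio of all measured genes from 0.02 to 0.15. Bringing the arrays to the same spike-in level moved it to 0.16. Of all genes past 2-fold, 56.6% were on the higher side in the deposited values, against 71.0% after median scaling and 71.6% after scaling to the spike-ins. The members' median log2 ratio was 0.24 and 0.25 with these scalings, and the only member past 2-fold there was Tlr7, at 1.43 with both.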

How the data were processed

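The arrays were Affymetrix whole-genome arrays, 1 per condition, hybridised with biotin-labelled cRNA from 1 µg of total RNA, per the labels' protocols, and each RNA mixed 3 experiments, per the series' design text. The intensities deposited by the authors are MAS5 signals computed in GCOS, per the submitters' processing notes. For versions, scaling target and detection calls, the sources used here give nothing. Subtraction of mismatch probes in MAS5 makes the ratios of dim signals noisy.

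Groups came from the treatment label. Probe sets with 1 gene symbol in the platform annotation (34945) were used, with symbols updated by Entrez number through RefSeq (GRCm38.p6). Another 932 had several symbols and 9160 none. The median signals were 18.0 (P25) and 18.4 (medium), and 95th percentiles 875 and 785. Signals under the floor (40th percentile, 10.3) were raised to it, and genes were counted from a ratio of 2 upward or 0.5 downward, with no p-value. Motif searches and ratios were made in Python 3.11.15 with pandas 2.3.3, and loess with statsmodels 0.14.6. The ratio and the counting were tested on simulated data. All members were named, in each pathway list the genes past 2-fold with the highest and the lowest, and in each marker list the highest, the lowest and those below the floor with a few examples. No genes of like pattern were sought, since 2 arrays give 1 ratio per gene. Alternatives were other floors, a pseudocount, scalings, other probe sets and a 1.5-fold threshold. The members, lists and motifs were chosen with earlier results of these data known. No batch label was used, so batch and treatment cannot be told apart, and the number of arrays limits the precision.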

Additional observations from a re-analysis of the deposited data

How the results depend on the processing

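The count of members at least 2-fold lower, 1 (Tlr9), was 0 with the floor at the 60th or 75th percentile, with the pseudocount of 16, and with median, spike-in, loess or quantile scaling, and 1 in the other alternatives at 2-fold. Tlr9 was not measured with the 2 higher floors, and its log2 ratio was -0.97 with loess and -1.0 with quantile normalization. At a threshold of 1.5-fold the counts were 3 higher and 2 lower. The count of members at least 2-fold higher was 1 (Tlr7) in each alternative at 2-fold. The number of genes past 2-fold over the pathway lists was 25 of 87 measured, 14 with the floor at the 75th percentile (chosen after the data were seen) and 45 at 1.5-fold, and between 20 and 31 otherwise. All 91 alternative log2 ratios of members moved by less than 0.58. Of 168 alternative counts of single lists, 33 changed by over 1.5 times or changed to or from 0. The 168 include the counts at the 1.5-fold threshold. Part of the 91 could not move, since the signals exceeded the floors or the gene had 1 probe set. No paired analysis was possible because each condition has 1 array with no replicate number, and no array could be left out for the same reason. Signals near the floor limit Tlr3, Tlr5, Tlr8 and Tlr9.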

Other observations

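Some sensors outside the Toll-like receptor family were higher with P25. In a list chosen after the data were seen, 15 cytosolic and lectin sensors with their adaptors were measured, of which 5 (33.3%) passed 2-fold on the higher side and none on the lower. Their median log2 ratio was 0.61, and the shares past 2-fold over all measured genes were 9.43% higher and 7.22% lower. Zbp1, a sensor of Z-form nucleic acids, read 1014 against 115, a log2 ratio of 3.14 with 4.71 on its other probe set. Clec4e, a lectin for mycobacterial cord factor that was also counted among the early induced genes, read 419 against 100.1. Eif2ak2, the RNA-activated kinase PKR, read 242 against 63.3, a log2 ratio of 1.93 with 0.91 and 1.08 on its other probe sets. Nlrp3, an inflammasome sensor, was dim at 28.0 against 10.8, and Ifih1, which encodes the RNA sensor MDA5, read 126 against 62.6, just past 2-fold at 2.01-fold. The DNA sensors Cgas (1.38-fold) and Aim2 (1.11-fold) and the adaptors Sting1 (1.23-fold) and Mavs (1.07-fold) were within 2-fold. Nod1 was the only one with a log2 ratio below 0, at 92.0 against 168 or 1.83-fold lower.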
